A study of Mus musculus with 4 samples.

Results

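Peaks of Dzip3, Ring1B, ubH2A and input DNA lay close together on mouse chromosome 6 between 47 and 48 Mb (mm9), in an array of near-identical repeats between Ezh2 and Pdia4. The members were chosen by position, as all peaks of the Dzip3, Ring1B, ubH2A and input lists on chromosome 6 with a start from 47000000 to 47999999. This gave 74 peaks of Dzip3 (list of 6482), 58 of Ring1B (10119), 73 of ubH2A (6642) and 41 of input DNA (6804), in all 246 of the 30047 peaks. The window had been selected because peaks are dense in it, so the numbers of peaks and their closeness are a description and carry no test. The ChIP-seq libraries came from E14 mES cells, a mouse embryonic stem cell line of strain 129/Ola at passage 3 to 5. All of the cells were grown in 2i + LIF, that is with 1 μM PD0325901 (a MEK inhibitor), 3 μM CHIR99021 (a GSK inhibitor) and 1000 U/ml LIF, and were fixed with 1% formaldehyde for 10 min. Input DNA and each of the 3 antibodies gave 1 library, with no knockdown, no IgG library and no replicate, so no difference between libraries has a replicate error and no p-value is given. The antibodies were raised in rabbits by the authors. The labels describe shearing with a Picoruptor where the methods describe micrococcal nuclease for ChIP-seq. Library sizes implied by the listed RPM (reads per M reads of the library) were 48.3 M reads in input DNA, 51.8 M in Ring1B, 53.3 M in Dzip3 and 67.0 M in ubH2A.

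Dzip3 and Ring1B are E3 ubiquitin ligases that act on histone H2A. Ring1B (Rnf2) is the catalytic subunit of Polycomb repressive complex 1 (PRC1), which places a single ubiquitin on lysine 119 of H2A, the mark here called ubH2A. PRC1 is known in mES cells for binding CpG-rich promoters of developmental genes together with PRC2, whose catalytic subunit Ezh2 methylates lysine 27 of histone H3. Input DNA is chromatin that was not pulled down and shows how many reads a place gives without an antibody.

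The peaks of the window sat in a tandem array, a stretch of DNA in which the same unit follows itself head to tail. A word of 31 bases occurred 18 times in the same orientation, 9 times on each side of a stretch of 50000 unsequenced bases (chr6:47637039-47687038), which is the only assembly gap of the window. The step from a word to the next had a median of 4.33 kb and ranged from 4247 to 4361 bp left of the gap and from 4223 to 6286 bp right of it. The commonest distance of more than 1000 bp between neighbouring occurrences of the same word of 31 bases was 4321 bp. Of the neighbouring occurrences more than 1000 bp apart, 72.6% were 4200 to 4400 bp apart. Of all words in the peak-holding sequence, 97.0% occurred more than once in the genome, with a median of 17 occurrences, against 6.31% in the 10 kb left of it and 16.9% in the 10 kb right of it. Of the different words that recurred, 69.8% were found nowhere else in the genome. The word is shown with the middle of a Dzip3 peak from each of 5 sites, the stretches into which the unit was divided after the positions of the peaks had been seen. At each site it is the strongest peak centred within 200 bp of the median position of the Dzip3 peaks there, to show the DNA on which such peaks lie. Sequences are the plus strand of mm9 from 5′ to 3′, and in the sites every CG, the dinucleotide that CpG-binding proteins recognise, is in capitals.
Repeated word in copy 1, chr6:47602232-47602262: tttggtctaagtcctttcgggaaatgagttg
Site 1, copy 12, chr6:47695082-47695201: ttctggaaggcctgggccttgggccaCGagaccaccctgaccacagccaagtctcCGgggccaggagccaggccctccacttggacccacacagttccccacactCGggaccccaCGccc
Site 2, copy 12, chr6:47695987-47696106: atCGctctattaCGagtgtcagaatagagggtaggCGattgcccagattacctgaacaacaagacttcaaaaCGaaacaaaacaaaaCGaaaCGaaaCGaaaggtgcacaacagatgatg
Site 3, copy 10, chr6:47688045-47688164: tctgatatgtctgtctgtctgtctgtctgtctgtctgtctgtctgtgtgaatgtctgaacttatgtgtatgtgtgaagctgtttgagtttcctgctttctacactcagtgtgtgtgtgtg
Site 4, copy 14, chr6:47707167-47707286: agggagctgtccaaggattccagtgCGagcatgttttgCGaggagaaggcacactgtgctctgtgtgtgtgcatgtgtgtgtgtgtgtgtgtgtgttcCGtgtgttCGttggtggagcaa
Site 5, copy 11, chr6:47694348-47694467: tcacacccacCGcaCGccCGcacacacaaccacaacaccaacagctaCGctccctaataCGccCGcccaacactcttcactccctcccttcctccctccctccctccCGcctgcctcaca
The stretch shown for site 1 was compared with the other copies. It was found in 16 of the 18 copies. It was identical to copy 12 in 10 of the 15 others and differed at 1 base in 5, while in 1 copy the stretch lay in the gap and in 1 copy no match was found. Copies 1, 3 and 17 are shown with the base that differs from copy 12 in capitals, since they show how alike the DNA under separate peaks is.
Site 1, copy 1, chr6:47601679-47601798: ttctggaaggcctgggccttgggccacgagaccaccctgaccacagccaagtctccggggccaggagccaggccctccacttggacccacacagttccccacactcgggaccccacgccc
Site 1, copy 3, chr6:47610232-47610351: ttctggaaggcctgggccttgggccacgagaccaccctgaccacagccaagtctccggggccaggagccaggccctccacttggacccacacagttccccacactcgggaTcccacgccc
Site 1, copy 17, chr6:47718497-47718616: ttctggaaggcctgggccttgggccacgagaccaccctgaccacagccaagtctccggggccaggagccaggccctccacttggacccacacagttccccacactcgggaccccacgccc
Most peaks of the cluster therefore held no sequence of their own. A word of 31 bases found only once in the genome was missing from 67 of the 73 Dzip3 peaks, 28 of the 54 Ring1B peaks, 61 of the 73 ubH2A peaks and 37 of the 40 input peaks. The highest share of unique words in a peak was 25.1%, in a Ring1B peak. The methods give the depth in uniquely mapped reads, a depth lower than the library sizes that the RPM values imply, and how reads that match several copies were placed is not given in the sources used here. Reads listed for a copy may therefore come from another, and peaks in separate copies are not independent observations. The base content differed from that of the chromosome. GC content was 54.6% in the peak-holding sequence and 41.4% on chromosome 6, and there were 3.58 CpG per 100 bases against 0.797. The ratio of observed to expected CpG was 0.480 against 0.186.

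The cluster began 56.2 kb from the promoter of Ezh2 and ended 17.7 kb before Pdia4. When peaks of any list less than 10 kb apart were joined, 240 of the 246 peaks fell into 2 runs. The left run reached from 47601537 to 47637059 (35.5 kb) and held 39 Dzip3, 27 Ring1B, 41 ubH2A and 20 input peaks. The right run reached from 47687115 to 47728393 (41.3 kb) and held 34, 27, 32 and 20 peaks in the same order. The runs lay directly against the gap. The last Ring1B peak of the left run was listed as ending 20 bp inside it, and the right run started 77 bp after it. From its first to its last base the cluster spanned 126.9 kb, of which 76.8 kb held peaks.

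No protein-coding gene overlapped the cluster. The window holds 23 annotated genes (GENCODE vM1), 10 of them protein-coding. On the left, Ezh2 (chr6:47480273-47545340, minus strand) turns its transcription start site (TSS) towards the cluster, and Cul1, the scaffold of SCF ubiquitin ligases (chr6:47403397-47476138, plus strand), ends 125.4 kb away. On the right, Pdia4, a protein disulfide isomerase of the endoplasmic reticulum (chr6:47746141-47763511, minus strand), turns its 3′ end to the cluster, with its TSS at 35.1 kb. Beyond it follow the zinc finger genes Zfp786, Zfp398, Zfp282, Zfp212, Zfp956 and Zfp777. A TSS of 5 of the coding genes lay within 100 kb of the cluster. These were Pdia4, Zfp786 at 52.5 kb, Ezh2 at 56.2 kb, Zfp398 at 57.3 kb and Zfp282 at 98.8 kb. Neither Ezh2, Cul1 nor Pdia4 had a peak of any list in the gene or within 10 kb of its TSS. The annotated genes inside the cluster were 2 predicted miRNA genes in the right run, AC166252.1 (chr6:47723328-47723428) and AC166252.2 (chr6:47724822-47724922). By the listed positions, whose counting from 0 or 1 is not stated, a Ring1B peak ended at the first base of AC166252.1, a contact that depends on this. No Dzip3, ubH2A or input peak overlapped either gene.

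**Figure D1:**
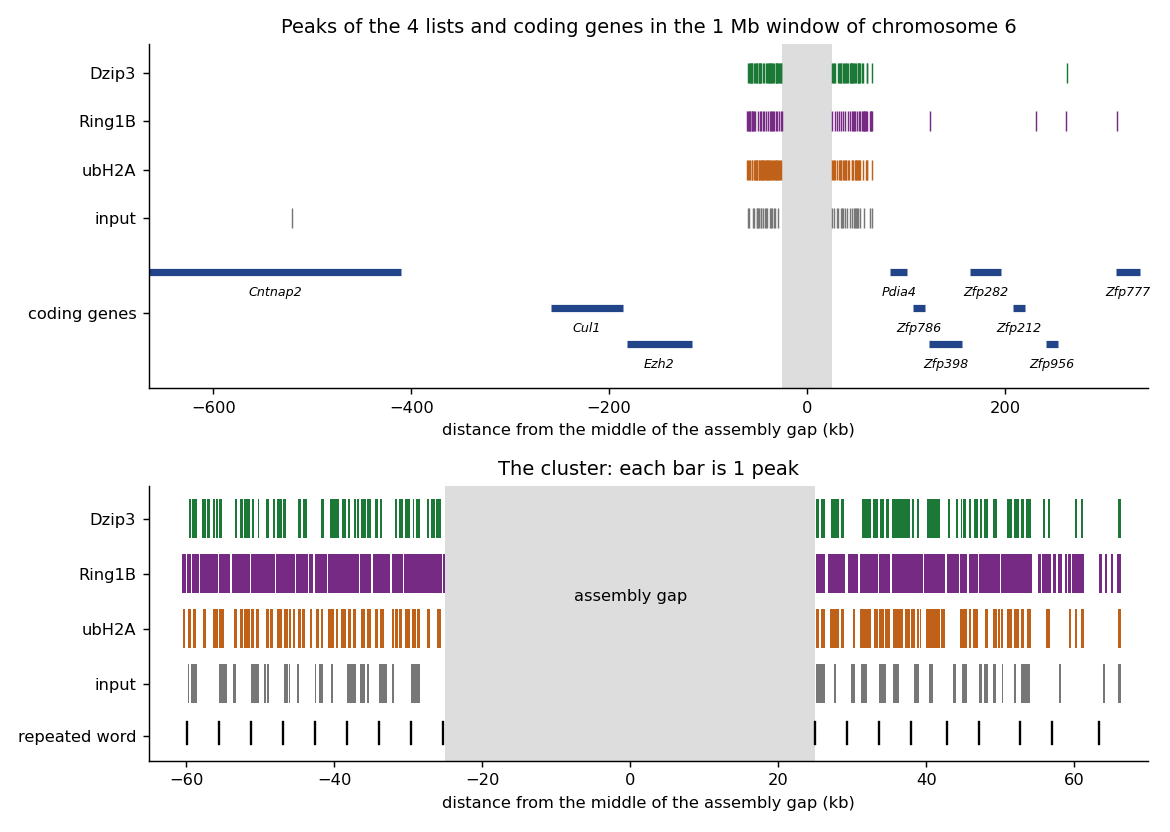
Peaks of the 4 lists by distance in kb from the middle of the assembly gap (grey), with the coding genes of the window as blue bars (above) and each peak of the cluster drawn as a bar to scale with the 18 repeated words as ticks (below). All but 6 of the 246 peaks lie directly left or right of the gap, between Ezh2 and Pdia4.

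The share of the chromosome's peaks in this window was 15.6% for Dzip3 (74 of 473), 7.84% for Ring1B (58 of 740), 14.7% for ubH2A (73 of 495) and 10.4% for input DNA (41 of 394). The rest of chromosome 6 held 2.74 Dzip3, 4.69 Ring1B, 2.90 ubH2A and 2.43 input peaks per Mb. The Mb before the window held 1, 0, 1 and 4 peaks in that order, and the Mb after it 6, 11, 3 and 3. The peak nearest before the window was an input peak that started at 46780936, with 40 Dzip3, 38 Ring1B, 46 ubH2A and 50 input reads. The nearest after it was a Dzip3 peak at 48059634, with 62, 14, 23 and 2 reads. At the edges of the cluster itself, the first peak was a Ring1B peak (chr6:47601537-47602102, 71 Dzip3, 394 Ring1B, 104 ubH2A and 12 input reads), which no Dzip3 peak overlapped. The first Dzip3 peak was chr6:47602410-47602711, with 83, 284, 99 and 21 reads. At the other end peaks of all 4 lists stopped within the same short stretch. The last was the Ring1B peak chr6:47727754-47728393, with 220, 789, 286 and 67 reads, and the last Dzip3 peak inside it (chr6:47727924-47728362) had 208, 741, 273 and 63 reads.

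Ring1B peaks of the cluster were long and nearly filled it, whereas Dzip3 and ubH2A peaks were short and spaced. Ring1B peaks had a median length of 1098 bp and covered 86.6% of the 2 runs, against a median of 304 bp in the whole Ring1B list. Dzip3 peaks had a median length of 400 bp and covered 42.9%, ubH2A peaks 435 bp and 48.3%, and input peaks 426 bp and 27.5%. Over the whole lists the medians were 263 bp (Dzip3), 282 bp (ubH2A) and 266 bp (input). The median distance between the centres of neighbouring peaks was 764 bp for Dzip3 (95% order-statistic interval over the steps 710.5 to 832 bp), 852 bp for ubH2A (773 to 1023 bp), 1311 bp for Ring1B (1106 to 1524 bp) and 1523 bp for input DNA (1344.5 to 2143 bp). Elsewhere on chromosome 6 the medians were 154 kb, 142 kb, 23.5 kb and 195 kb. Per copy of the unit there were 4.06 Dzip3, 4.06 ubH2A, 3 Ring1B and 2.22 input peaks.

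Ring1B peaks also stood higher. Their median height was 4.25 RPM (lowest to highest 0.599 to 7.26), against 0.773 RPM over the Ring1B list. Dzip3 peaks had a median of 0.957 RPM (0.619 to 2.27) against 0.770, ubH2A peaks 0.820 RPM (0.477 to 2.42) against 0.597 and input peaks 0.476 RPM (0.311 to 1.12) against 0.393. The Ring1B peaks of the cluster held 58470 reads of the Ring1B library, or 0.113% of it. The Dzip3 peaks held 12699 reads of theirs (0.0238%), the ubH2A peaks 14961 (0.0223%) and the input peaks 3771 (0.00781%).

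The peaks of the 4 lists largely covered each other. Each of the 73 peaks of Dzip3 shared at least 1 bp with a Ring1B peak (100%, 95% Wilson interval 95% to 100%), against 51.6% of all Dzip3 peaks. The intervals cover counting error only and take the peaks as independent, which peaks of near-identical copies are not. With peaks that overlap an input peak left out of both lists, the share was 55.9% for Dzip3 and 54.5% for ubH2A, since this also takes out the long Ring1B peaks that touch an input peak. A ubH2A peak overlapped 65 of the 73 Dzip3 peaks (89.0%, 79.8% to 94.3%), against 49.6% of the list, and an input peak 39 (53.4%, 42.1% to 64.4%), against 26.6%. From the side of ubH2A, all 73 peaks overlapped a Ring1B peak (list 44.2%), 59 a Dzip3 peak (80.8%, list 41.0%) and 40 an input peak (54.8%, list 28.9%). Of the 54 Ring1B peaks, 41 overlapped a Dzip3 peak (75.9%, list 32.5%), 42 a ubH2A peak (77.8%, list 33.2%) and 33 an input peak (61.1%, list 16.2%). The input peaks were covered as often. Of these 40 peaks, 39 overlapped a Ring1B peak (97.5%, list 17.4%), 36 a ubH2A peak (90.0%, list 24.9%) and 32 a Dzip3 peak (80.0%, list 18.3%). Since Ring1B peaks filled most of the runs, an overlap with Ring1B is nearly given by the position in the array.

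The scaled fold over input DNA was lower in the cluster than over the lists. Its median was 3.55 for Dzip3 peaks (95% order-statistic interval over the peaks 2.88 to 4.86), 8.14 for Ring1B peaks (6.39 to 10.5) and 2.64 for ubH2A peaks (2.21 to 3.06). Over the whole lists it was 7.84, 13.6 and 4.71. A fold of at least 2 was listed for 56 of 73 Dzip3 peaks, where 82.9% of the whole list reached it, for all 54 Ring1B peaks (list 89.3%) and for 51 of 73 ubH2A peaks (list 74.9%). The fold was below 1 for 1 Dzip3 and 4 ubH2A peaks. Input reads are the divisor of the fold, so a lower fold in peaks with an input peak is largely given by the split. The 34 Dzip3 peaks without an input peak had a median of 6.29 and the 39 with an input peak 2.13. For Ring1B the medians were 17.4 without (21 peaks) and 6.73 with (33 peaks), and for ubH2A 4.09 (33 peaks) and 1.68 (40 peaks). Scaled input reads were 1.14 reads per kb per M in the Dzip3 peaks without an input peak and 3.08 in those with it, while scaled Dzip3 reads were 6.53 and 6.81. Over the whole lists, peaks without an input peak had median folds of 11.5 (Dzip3), 17.5 (Ring1B) and 7.18 (ubH2A). Among such peaks the cluster's median was thus near the list for Ring1B and below it for Dzip3 and ubH2A.

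Ring1B reads exceeded those of every other library throughout the cluster. In the 73 Dzip3 peaks the median number of reads per kb and per M reads of the library was 6.65 for Dzip3 (lowest to highest 5.15 to 13.7), 25.9 for Ring1B (10.1 to 52.3), 5.96 for ubH2A (2.36 to 15.0) and 1.62 for input DNA (0.226 to 7.51). Over all Dzip3 peaks the medians were 6.02, 4.29, 3.39 and 0.714. Dzip3 reads thus lay near the level of the list in peaks that the Dzip3 library itself had chosen, and the reads of the other 3 libraries lay above it. In peaks of the other lists Dzip3 reads were above the list too, with 4.30 against 2.49 in Ring1B peaks, 5.94 against 3.58 in ubH2A peaks and 5.25 against 1.11 in input peaks. The ratio of scaled Ring1B to Dzip3 reads had a median of 3.62 (1.76 to 7.59) and was at least 2 in 68 of 73 peaks, against 2.96% of all Dzip3 peaks and a list median of 0.718. The highest ratio among all 6482 Dzip3 peaks, 7.59, was in this cluster. Peaks chosen by the other antibodies gave like ratios in the array, with medians of 3.81 in the 54 Ring1B peaks (list 2.39) and 3.68 in the 73 ubH2A peaks (list 1.03). In the 40 input peaks, which no antibody chose, it was 3.74 (list 0.875).

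The ratio was higher in the cluster than in the other dense windows it was compared with. Between 19 and 20 Mb of chromosome 8 the 203 Dzip3 peaks had 7.46 Dzip3, 7.38 Ring1B, 8.15 ubH2A and 7.06 input reads per kb per M, so all 4 libraries were at like levels, and the median ratio of Ring1B to Dzip3 was 0.924. In the window of chromosome X from 166 to 167 Mb that holds Mid1, a ubiquitin ligase gene, the 51 Dzip3 peaks had 6.75 Dzip3, 6.52 Ring1B, 5.45 ubH2A and 1.20 input reads per kb per M, with a median ratio of 0.918. None of the Dzip3 peaks in these windows reached a ratio of 2. With 1 library for each target this difference was not tested.

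**Figure D2:**
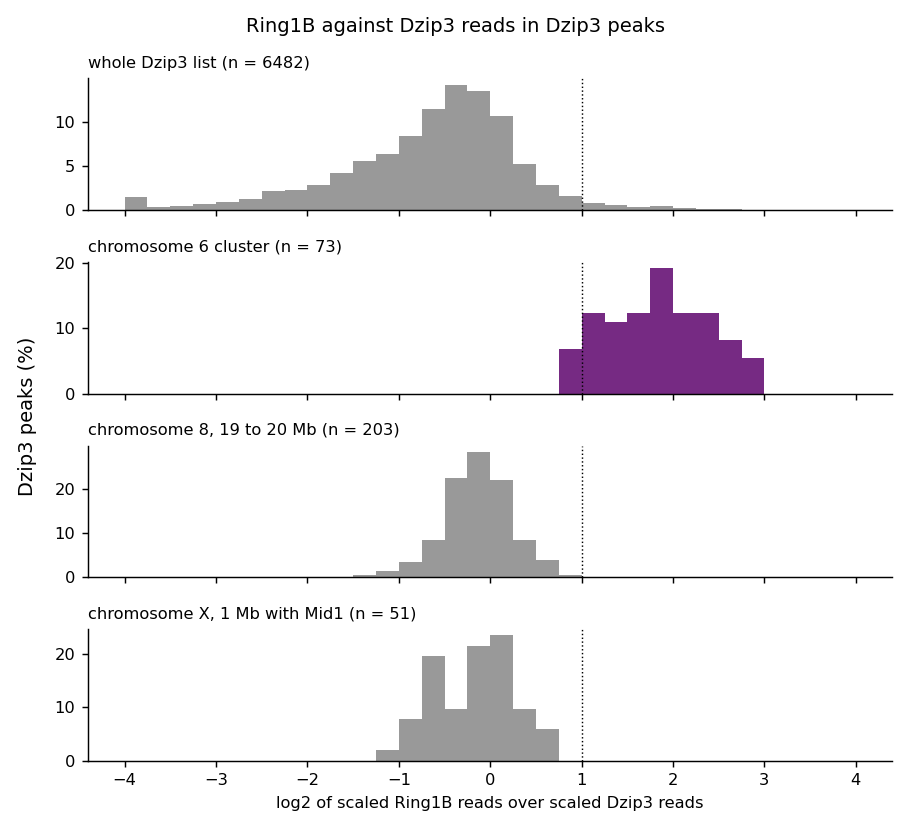
Percent of Dzip3 peaks (y axis) by the log2 ratio of scaled Ring1B to scaled Dzip3 reads (x axis) in the whole list, the chromosome 6 cluster and the windows of chromosome 8 and chromosome X, with a dotted line at a ratio of 2. Of the 73 peaks of the cluster 68 lie right of the line, and none of the 203 and 51 peaks of the other windows do. Peaks with the smallest ratios, no Ring1B reads included, are in the first bar.

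In the strongest Dzip3 peaks Ring1B again had the most reads, while the order of Dzip3 and ubH2A varied. The strongest Dzip3 peak by RPM (chr6:47707015-47707437, 2.27 RPM), whose middle is the sequence shown for site 4, held 308 Dzip3, 892 Ring1B, 425 ubH2A and 83 input reads and had a fold of 3.29. The second (chr6:47694802-47695481, 2.20 RPM), shown for site 1, held 360, 1266, 252 and 42 reads, with a fold of 7.51. The third (chr6:47687847-47688362, 1.88 RPM), shown for site 3, held 268, 733, 245 and 122 reads, with a fold of 1.95. Ring1B reads were the most numerous in each of them, and input reads the fewest. Among Dzip3 peaks that no input peak overlapped, the highest folds were 21.3, 19.02 and 18.2, at chr6:47613736-47614029, chr6:47707826-47708101 and chr6:47694210-47694604. These held 116, 82 and 160 Dzip3 reads on 4, 3 and 7 input reads, and 240, 222 and 459 Ring1B reads. All 3 lay at the same place of the unit, with centres 3097.5, 3143.5 and 3119 bp after the repeated word, in copies 3, 14 and 11, and the middle of the last is shown for site 5.

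The strongest Ring1B peak (chr6:47701702-47704571, 7.26 RPM) held 931 Dzip3, 3507 Ring1B, 950 ubH2A and 186 input reads and had a fold of 16.9. The next were chr6:47693013-47695564 with 990, 3443, 1034 and 218 reads and the last peak of the cluster, both at 6.78 RPM. For ubH2A the strongest was chr6:47706585-47707557 (2.42 RPM), which covers the strongest Dzip3 peak and held 394 Dzip3, 1097 Ring1B, 569 ubH2A and 129 input reads, followed by chr6:47693113-47694604 (2.31 RPM) and chr6:47727893-47728367 (1.98 RPM). For input DNA it was chr6:47602736-47603537 (1.12 RPM), with 219, 827, 241 and 231 reads, followed by chr6:47687134-47688380 (0.849 RPM) and chr6:47623815-47624974 (0.766 RPM). In this input peak, input DNA and Dzip3 had nearly equal reads, and Ring1B again had the most.

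Within the unit, Dzip3 and ubH2A peaks returned to the same places in many copies. Input peaks were centred mostly in sites 2, 3 and 4 and were rare at sites 1 and 5. Positions were counted from the repeated word, and peaks were assigned by their centre to site 1 (up to 1000 bp before the word), site 2 (0 to 600 bp after it), site 3 (600 to 1700 bp), site 4 (1700 to 2700 bp) and site 5 (from 2700 bp to the next unit). These borders were set after the positions had been seen. Dzip3 peaks were centred in site 1 in 13 copies, in site 2 in 13, in site 3 in 11, in site 4 in 14 and in site 5 in 15. The numbers for ubH2A were 16, 12, 12, 14 and 11 copies, and those for input DNA were 1, 10, 12, 12 and 3. Input peaks also ran through the stretch between the Dzip3 places of sites 2 and 3. At 600 to 650 bp after the word they covered a mean of 13.94 copies, against 1 for Dzip3 and 4.28 for ubH2A. Ring1B peaks covered nearly the whole unit. At 200 to 250 bp after the word they covered all 18 copies, and their lowest cover, 3 copies, was 1600 to 1650 bp after it.

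**Figure D3:**
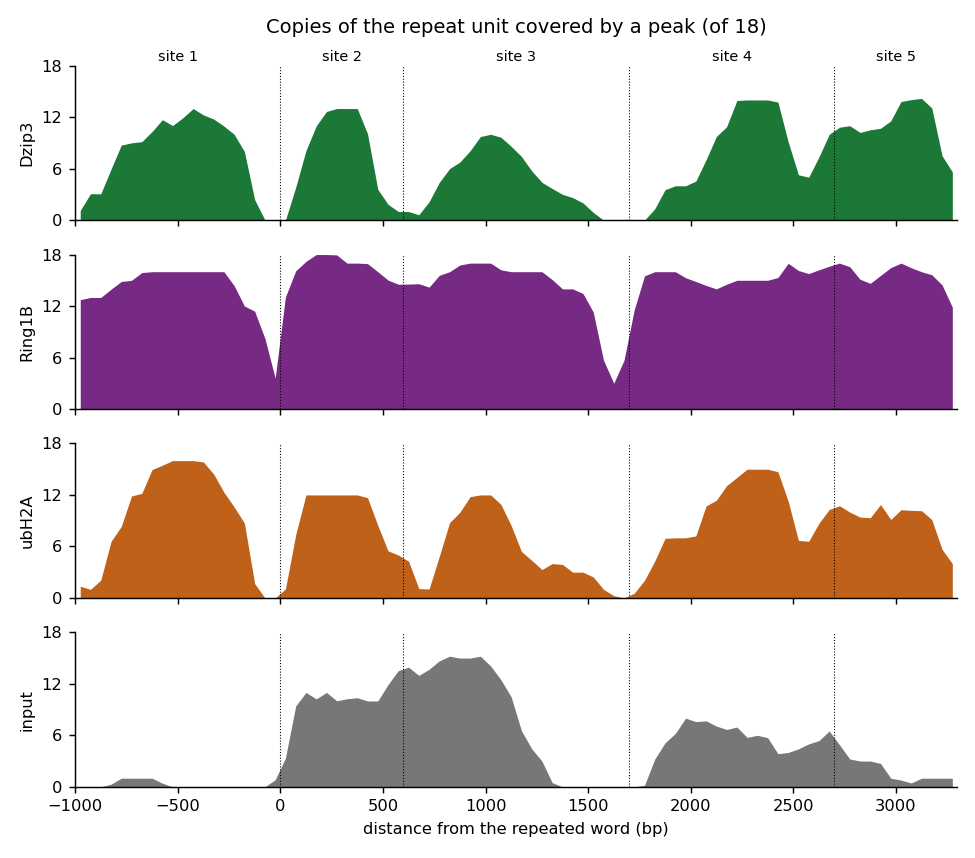
Number of copies of the repeat unit, of 18, covered by a peak (y axis) along the unit in bp from the repeated word (x axis), for each list, with dotted lines between the sites. Dzip3 and ubH2A rise at the same places, Ring1B covers nearly all of the unit, and input DNA is nearly absent from site 1.

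The sites differed in base content and in input reads. Dzip3 peaks in site 1 had a median GC content of 64.7% and 4.88 CpG per 100 bases, and those in site 5 had 63.4% and 6.93. In site 2 these were 47.7% and 3.87, in site 3 47.1% and 0.976 and in site 4 55.1% and 3.25. An input peak overlapped 2 of 16 Dzip3 peaks in site 1 and 2 of 17 in site 5, against 12 of 13 in site 2, 11 of 12 in site 3 and 12 of 15 in site 4. Scaled input reads were 1.13 per kb per M in site 1 and 1.12 in site 5, and 4.03, 3.08 and 2.28 in sites 2, 3 and 4. Scaled Dzip3 reads lay in a narrow range, from 6.27 in site 3 to 7.77 in site 4. The Dzip3 fold, which has the input reads as its divisor, had medians of 6.29 in site 1 (2.52 to 12.3), 1.57 in site 2 (1.01 to 4.34), 1.92 in site 3 (0.870 to 6.76), 2.95 in site 4 (1.81 to 5.59) and 7.17 in site 5 (2.92 to 21.3).

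In the Dzip3 peaks, Ring1B reads had another order along the unit. Their medians were 33.6 and 35.4 reads per kb per M in sites 1 and 2. They were 22.0 in site 3, 23.4 in site 4 and 16.2 in site 5. The ranges of sites 1 and 2 overlapped (25.8 to 52.3 and 18.2 to 44.8). That of site 5 (12.1 to 36.6) overlapped both of them. Site 5 reaches to the next unit, so in longer units it holds positions far from its median of 3071.5 bp. Its highest value was in a peak centred at 3474.5 bp in copy 13. Peaks at 4044.5 bp in copy 17 and 4145.5 bp in copy 15 had 36.0 and 22.1. The ratio of Ring1B to Dzip3 was accordingly 4.93 and 5.33 in sites 1 and 2 and 2.87, 2.98 and 2.71 in sites 3 to 5. Scaled ubH2A reads were 5.68, 6.77, 5.28, 6.90 and 4.37 in sites 1 to 5. Sites 1 and 5, the GC-rich sites with few input reads, thus had medians of 33.6 and 16.2 for Ring1B. The stretches of 120 bases shown for them hold 4 and 7 CG.

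**Figure D4:**
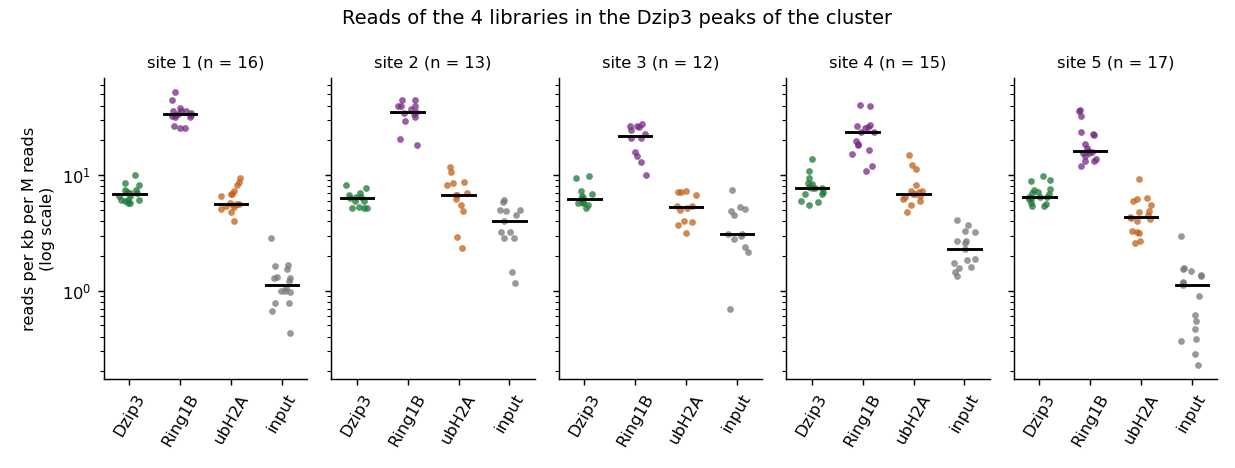
Reads per kb per M of the Dzip3, Ring1B, ubH2A and input libraries (y axis, log scale) in each Dzip3 peak of the cluster (points), by site, with black lines at the medians. Ring1B is highest at all 5 sites, Dzip3 stays near 6 to 8, and input DNA falls to 1.13 and 1.12 at sites 1 and 5.

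Ring1B was the highest library in every copy, but the order of the others varied. Scaled ubH2A reads were above those of Dzip3 in copy 2 (4.96 and 3.86) and below them in copy 12 (5.43 and 6.27). In copy 9 they were below those of input DNA (1.28 and 1.36). When the reads in the Ring1B peaks centred in each copy were added up, Ring1B had a median of 15.9 reads per kb per M over the 18 copies (8.58 to 23.8), Dzip3 4.40 (2.53 to 6.27), ubH2A 4.03 (1.28 to 5.43) and input DNA 1.83 (1.04 to 2.71). The ratio of Ring1B to Dzip3 ranged from 3.05 in copy 15 to 4.65 in copy 2, with a median of 3.79. The ratio of Dzip3 to input ranged from 1.70 in copy 6 to 3.56 in copy 8. The lowest Ring1B, Dzip3 and ubH2A levels were in copy 9, which the gap cuts and where 1 Ring1B peak of 304 bp was counted. A long Ring1B peak that reaches into this copy (chr6:47634080-47636686) is centred in copy 8 and was counted there. The Dzip3 peak of copy 9 (chr6:47635834-47636509) had 32.1 Ring1B, 5.70 Dzip3 and 5.35 ubH2A reads per kb per M. The highest Ring1B, Dzip3 and ubH2A levels by copy were in copy 12. Left of the gap the medians over 9 copies were 14.8 for Ring1B, 3.90 for Dzip3, 3.74 for ubH2A and 1.64 for input DNA. Right of it they were 19.1, 4.98, 4.46 and 1.87, with ranges that overlapped in each library. The median ratio of Ring1B to Dzip3 was 3.79 left and 3.80 right of the gap. Since the placing of reads among like copies is not given, these values do not show how each copy is bound.

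**Figure D5:**
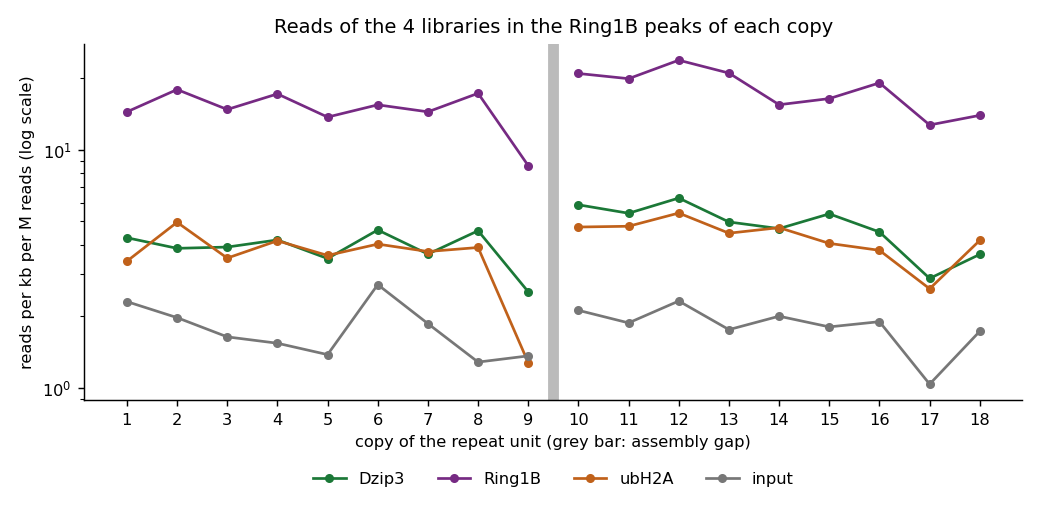
Reads per kb per M (y axis, log scale) of the 4 libraries in the Ring1B peaks of each of the 18 copies (x axis), with the assembly gap as a grey bar. Ring1B is the highest in every copy, and the ratio of Ring1B to Dzip3 stays between 3.05 and 4.65.

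Only 6 peaks of the window lay outside the cluster, 4 of Ring1B and 1 each of Dzip3 and input DNA. A Ring1B peak in an intron of Zfp398 (chr6:47786244-47786480) had 8 Dzip3, 64 Ring1B, 58 ubH2A and 5 input reads and a fold of 9.90. It lay 0.550 kb from a TSS of this gene and 5.38 kb from that of Zfp786. A Ring1B peak at the start of Zfp783, an exonic stretch (chr6:47893261-47893605), had 10, 103, 36 and 4 reads and a fold of 19.1, and it lay 9.78 kb from the TSS of Zfp956. A Ring1B peak in an exon of Zfp777 (chr6:47975175-47975384) had 6, 66, 58 and 2 reads and a fold of 20.8. In these 3 peaks Dzip3 had 6 to 10 reads. Scaled ubH2A reads were below those of Ring1B in each. At Zfp398 they were 3.67 per kb per M against 5.24, and at Zfp777 4.14 against 6.10. At Zfp783 they were 1.56 against 5.78. The fourth Ring1B peak (chr6:47924103-47924317, 40, 67, 27 and 3 reads) overlapped the Dzip3 peak outside the cluster (chr6:47924162-47924362), which had 50, 55, 29 and 4 reads and a fold of 9.30. Both lay between genes. The middle of this Dzip3 peak is a simple repeat without a CG, shown to set it beside the sites of the array. Of those, the stretch shown for site 3 holds no CG either.
Dzip3 peak near Zfp956, chr6:47924203-47924322: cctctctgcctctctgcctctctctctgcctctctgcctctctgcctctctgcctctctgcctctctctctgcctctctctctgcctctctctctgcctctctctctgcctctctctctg
The input peak lay in an intron of Cntnap2, a neurexin-family cell adhesion gene (chr6:47140988-47141188), with 44 Dzip3, 26 Ring1B, 35 ubH2A and 30 input reads. With it, 5 of the 10 coding genes had a peak in the gene or within 10 kb of a TSS, namely Cntnap2, Zfp786, Zfp398, Zfp956 and Zfp777, and all of these peaks were outside the array.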

How the data were processed

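ChIP-seq peak lists of 4 libraries from E14 mES cells were used. Per the methods, the authors aligned the reads to mm9 with the Illumina Analysis Pipeline, allowing 1 mismatch, and then used the Partek Genomics Suite (FDR 0.1) to call peaks on each library. The authors deposited counts of reads of all 4 libraries in each peak, the peak height as RPM, a p-value and a scaled ratio (fold) against input, and how many percent of each peak other lists cover. The deposited p-value was not used. Rows that did not hold 18 columns were dropped (1 for ubH2A, 1 for input). None of the breaks this leaves in these lists lies on chromosome 6.

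Peak positions are as listed. Library sizes were taken from height over RPM, and reads were divided by peak length and library size. Shares have 95% Wilson intervals, and some medians have 95% order-statistic intervals, which the text names. Both cover counting error over peaks or steps only and take these as independent. Other ranges in brackets beside a median run from the lowest to the highest value. Runs were peaks of any list with gaps of at most 10 kb and at least 10 peaks. Words of 31 bases were counted on the whole mm9 genome (NCBIM37), and copies of the unit were placed by a word with the most copies, at least 3000 bp apart. Genes are from GENCODE vM1. Chromosome 6 has 149517037 bases there, and the last peak on it ends at 149393723. Named peaks are the 3 strongest of each list by RPM, the 3 Dzip3 peaks without input overlap with the highest fold, the first and last peak of the cluster and those outside it. Named genes are those with a peak in the gene or within 10 kb of a TSS, those on either side of the cluster, and Ezh2. The members, lists and tests were chosen with earlier results of these data known. On simulated data the overlap function found all of 1500 overlaps planted in 3000 intervals. Alternatives were joined peaks, the stronger 50% of each list, input-overlapping peaks left out, other gaps, a stricter overlap and other scalings. Calculations used matplotlib 3.10.9, numba 0.67.0, numpy 2.4.6, pandas 2.3.3 and scipy 1.17.1 under Python 3.11.15.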

Additional observations from a re-analysis of the deposited data

How the results depend on the processing

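Of 83 values under alternatives, 54 stayed within their interval (or within 1.5 times for counts and cluster length) and 29 moved. The 6 alternatives for the start and end of the cluster and the 6 for the ratio of Ring1B to Dzip3, which were chosen after seeing the data, did not move (ratio 3.50 to 3.81). Leaving out peaks that overlap an input peak gave 35 Dzip3, 25 Ring1B and 33 ubH2A peaks in the window, and median folds over input DNA of 6.29, 17.4 and 4.09. When input-overlapping peaks were left out of both lists compared, 55.9% of Dzip3 and 54.5% of ubH2A peaks overlapped a Ring1B peak, 76.5% of Dzip3 peaks overlapped a ubH2A peak, and 52.4% and 61.9% of Ring1B peaks overlapped a Dzip3 and a ubH2A peak. By its construction this also removes the long Ring1B peaks that touch an input peak. With the stronger 50% of each list there were 26 input peaks, 37.7% of Dzip3 peaks overlapped an input peak, and 100% of input peaks overlapped a Ring1B peak. Joining Ring1B peaks closer than 100 bp gave 35 peaks with a median spacing of 2519 bp. Measured from the end of a peak to the start of the next, the median spacing was 109.5 bp (Ring1B), 310 bp (Dzip3), 340 bp (ubH2A) and 996.5 bp (input). Reads per kb per M depended on the list that set the peaks. Dzip3 reads were 4.30 in Ring1B peaks, 5.94 in ubH2A peaks and 5.25 in input peaks, Ring1B reads 14.8 in Ring1B and 19.9 in input peaks, ubH2A reads 3.68 in Ring1B and 5.16 in input peaks, and input reads 3.45 in input peaks. Without scaling to each library's size, ubH2A reads were 7.25 per kb and M reads of the mean library. No paired analysis was possible because each target has a single library. The sites along the unit and the comparison with chromosomes 8 and X were also chosen after the data had been seen. The number of copies of the unit in these cells, the sequence of the gap and the placing of reads that match several copies limit every value of the array, and their part in the results was not tested.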
